A study of Mus musculus with 28 samples.

Results

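The kidneys described here came from db/m mice that had both kidneys, which served as the lean, non-diabetic controls of a study of severe diabetic kidney disease. They were chosen as every library whose label reads db/m and intact, which gave 11 of the 28 libraries of the study, 5 from mice of 26 weeks and 6 from mice of 35 weeks. All were bulk RNA-seq libraries of whole kidney from males, and no treatment or surgery is given for them. The name db/m stands, as background, for mice with 1 mutant db allele of the leptin receptor gene and 1 intact allele, so these controls are not free of the mutation. The other 17 libraries came from db/db mice with 1 kidney removed (db/db Unx), 12 at 26 weeks and 5 at 35 weeks. The labels do not say that each library came from its own mouse. That was assumed, and the spread between libraries may be partly technical. Neither a batch nor an hour of collection is given, and age cannot be told apart from either.

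Most of the mass of a kidney is proximal tubule, whose cells take back glucose, amino acids, phosphate and filtered protein from the tubule fluid, secrete organic acids and drugs into it, and burn fatty acids to pay for this transport. The thick ascending limb, distal convoluted tubule and collecting duct then adjust salt, calcium, acid and water under hormonal control. Glomeruli, vessels, interstitial cells and resident immune cells make up the remainder.

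Depth lay between 21.8 and 29.7 M (10 to the power of 6) estimated counts per db/m library, and between 12549 and 12732 genes had a value of at least 1. Libraries of the same age correlated with Pearson r of 0.983 to 0.990 on the log2 scale across genes, which are not independent. A level below is the mean of the 26-week and 35-week means of the deposited, depth-scaled value. These values are not divided by gene length, so single genes are compared with each other on the level per kb of exon. Shares of the signal, and counts of genes that reach a level, are not corrected for length unless given per kb. Ranges in parentheses after a level per kb are over the 11 libraries.

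A small set of genes held much of the signal. Of 14845 genes in the table, 12708 had a level of at least 1. The 1780 genes with a level of at least 100 held 72.4% of the summed level, the 100 genes with at least 1000 held 29.5%, and 2 genes with at least 10000 held 4.60%. Those were Gpx3 and Kap. In single libraries the 10 most abundant genes held 10.1% to 11.7% of the value, and 441 to 541 genes were needed to reach 50%. Per kb of exon the same measures gave 18.9% to 22.1% and 154 to 205 genes.

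Gpx3 (ENSMUSG00000018339, chromosome 11, 54902453 to 54910377, GRCm38) encodes plasma glutathione peroxidase, a secreted selenoprotein that the proximal tubule makes for the blood. Its values were 26332, 29066, 29497, 27723 and 31625 at 26 weeks and ran from 24250.1 to 29379 with a median of 27692 at 35 weeks, so that the ages overlapped. It held 2.86% ± 0.184 (SD, n = 11) of the signal. Kap (ENSMUSG00000032758, chromosome 6, 133849851 to 133853762) encodes the kidney androgen-regulated protein of the male proximal tubule. Its values were 18568, 18879, 18449, 19741 and 22002 at 26 weeks and ran from 12816 to 16128 with a median of 14995.5 at 35 weeks, and every 26-week library lay above every 35-week library. Under quantile normalization, which gives the gene of each rank the same value in every library, its log2 difference between the ages was 0. Per kb the order of these genes was the reverse, with Kap at 24170.3 (18128 to 31120.3) and Gpx3 at 15498 (13376 to 17443), because the exons of Kap cover 707 bases and those of Gpx3 1813. The libraries of neither gene overlapped with those of its next neighbour in the order per kb.

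Below this pair the order was less certain, since over the 11 libraries each gene of the 20 highest per kb overlapped with the next one down, apart from Cyp4b1 above mt-Nd4. The leading genes were those of the mitochondrial genome, iron storage and peroxide removal. mt-Cytb, a subunit of complex III, had 6789 (6099 to 7639.9) per kb, and mt-Co3 and mt-Co1, subunits of cytochrome c oxidase, had 6547 and 5475. Ftl1 and Fth1, the light and heavy chains of ferritin, had 5151 (3783 to 5967) and 2176 (1875 to 2448) per kb. Gpx1, the cytosolic glutathione peroxidase, had 4301 (3511 to 4827). Cyp4b1, a cytochrome P450 of male mouse kidney, had 3804 (3206 to 4326). Ubb, a polyubiquitin gene, Acy3, an aminoacylase, Miox, which opens the ring of myo-inositol, and Slc27a2, a fatty acid transporter and acyl-CoA synthetase, followed at 1904, 1601, 1573 and 1565 per kb. Some of the 20 highest by level are absent from the 20 highest per kb, among them Acsm2 (level 6959, 937 per kb), the noncoding RNA Malat1 (level 3749.9, 537 per kb) and Akr1a1, an aldehyde reductase (level 3622, 1317 per kb). Fth1 and Ubb have many processed copies in the genome, so the division of reads among copies is uncertain.

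**Figure D1:**
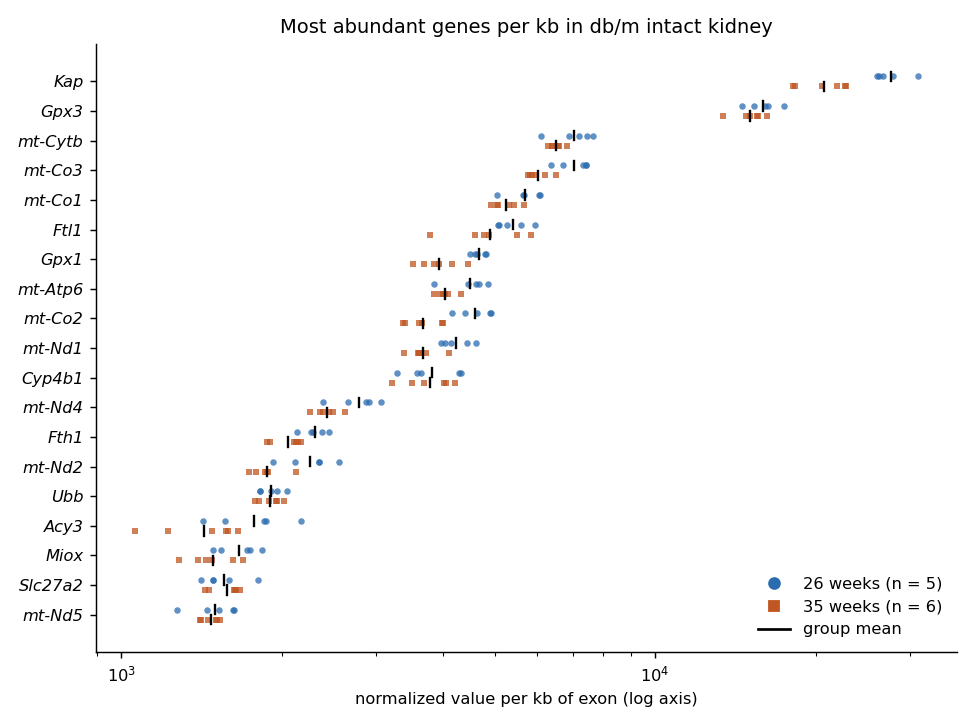
Normalized value per kb of exon (log axis) of the genes highest per kb in db/m kidney that are reported here, with 1 point per library (circles 26 weeks, squares 35 weeks) and a bar at each group mean. Kap and Gpx3 lie above all others, the ages do not overlap for Kap, and most other neighbours overlap.

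The labelled tissue was checked against markers of nephron segments and other cells. Proximal tubule genes led. All 15 genes of the list for the whole proximal tubule had a level of at least 100, against 12.0% of all genes, and their median was 485 per kb, against 4.43 over all genes with a level of at least 1. Together they held 3.26% ± 0.173 (SD, n = 11) of the summed value per kb. Besides Miox and Slc27a2, high members were Fbp1, a fructose bisphosphatase of gluconeogenesis, at 1319 (1154 to 1437) per kb, and Slc34a1, the sodium phosphate cotransporter NaPi-IIa, at 1199.6 (1118 to 1301). Acsm2, a medium-chain acyl-CoA synthetase, stood at 937 (777 to 1085). In bulk tissue, more cells of a type and more RNA per cell cannot be told apart.

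Genes that mark single stretches of the proximal tubule were all present. Of the early, or S1, list the highest per kb were Gatm, which makes the creatine precursor guanidinoacetate, at 279 (215 to 346), and Slc5a2, the glucose carrier SGLT2, at 226 (197 to 259.6). The neutral amino acid carrier Slc6a19 had 73.3 (46.1 to 87.2). In the S2 list Cyp2e1 stood at 1280.3 (1073 to 1447) per kb, and the organic anion transporter Slc22a6 at 335 (282 to 383). In the S3 list Acy3 and Napsa, an aspartic protease, had 1601 (1061 to 2168) and 1053 (942 to 1205), and Slc7a13, an amino acid carrier of male S3, had 310.4 (248 to 381). The medians of the lists were 62.2 for S1, 193 for S2 and 93.6 for S3 per kb. The lists differ in their genes, so these medians do not give the relative size of the segments.

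Genes of the loop of Henle and distal nephron were lower, with a few exceptions for short, abundant transcripts. Umod, the uromodulin of thick ascending limb, had 404 (318 to 589.9) per kb, and its values were 891, 1022, 1197, 1021 and 879 at 26 weeks and ran from 1015 to 1629.9 with a median of 1201 at 35 weeks. The salt carrier Slc12a1 (NKCC2) had 60.9 (37.6 to 116) per kb and the urinary growth factor gene Egf 67.0 (48.5 to 90.7). In the distal convoluted tubule Kcnj16, a potassium channel subunit, had 101 (90.1 to 114), the calcium-binding Pvalb 78.8 (55.7 to 94.4) and the thiazide-sensitive carrier Slc12a3 41.4 (35.0 to 48.6). The highest genes of the connecting tubule list were Klk1, tissue kallikrein, at 1418 (1196 to 1597) and S100g, calbindin-D9k, at 1000.2 (693 to 1503). Klk1 belongs to a family of near-identical kallikrein genes, so its reads are uncertain. In the collecting duct the principal cell water channels Aqp2 and Aqp3 had 328 (177 to 612) and 92.0 (76.8 to 105), and the intercalated cell ammonia channel Rhcg 34.5 (25.1 to 41.4). The medians were 24.3 for thick ascending limb, 6.76 for distal convoluted tubule, 12.6 for principal cells and 5.72 for intercalated cells.

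The collecting duct gene Aqp2 and Slc14a2, a member of the thin limb list, varied between the libraries. For Aqp2 the values were 251, 476, 437, 339 and 371 at 26 weeks and 376, 384, 505, 868, 673 and 527 at 35 weeks, and the highest was from 35-week library 04. The urea transporter Slc14a2 of the medulla was listed at 0.00, 4.76, 9.18, 0.00 and 2.23 at 26 weeks and at 0.00, 0.577, 4.31, 39.5, 24.3 and 6.77 at 35 weeks, where libraries 04 and 05 stood above the others. How much medulla each piece of kidney held is not given in the labels, and its part in these values was not tested.

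Glomerular, vascular and stromal genes were detected at low levels. The podocyte collagen gene Col4a3 had 17.5 (14.3 to 21.8) per kb and Podxl, a podocalyxin shared with endothelium, 10.6 (9.69 to 11.3). Plvap, of fenestrated endothelium, had 79.4 (70.1 to 95.8) and the endothelial receptor gene Kdr 7.41 (5.80 to 9.28). Ren1, renin of the juxtaglomerular cells, had 38.8 (22.7 to 84.9), and the smooth muscle actin gene Acta2 8.51 (5.00 to 11.9). Of the macula densa genes Nos1, Ptgs2 and Pappa2 each had a level under 1, at 0.0521, 0.0451 and 0.0222 per kb, and the vasopressin receptor gene Avpr1a had 2.43.

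Of blood and immune genes, the globins were the most abundant. Hbb-bs had 411 (148 to 1039) per kb and Hba-a2 334 (109 to 877), and both are described with the variable genes below. Cd74, the invariant chain of MHC class II, had 278 (162 to 881), and the macrophage lysozyme gene Lyz2 43.6 (31.0 to 66.0). Of 10 measured lymphocyte markers, 4 had a level of at least 1, and the median of the list was 0.309 per kb. The T cell gene Cd3e had 0.146 per kb and Jchain, the joining chain of secreted IgA and IgM, the highest value of the list, 9.08 (3.37 to 20.8), while Ms4a1, Ighm and Igkc were not listed in the table. Tissues next to the kidney left little trace. Of the adipocyte markers, Adipoq, Plin1, Cfd, Lep, Ucp1 and Cidea were not listed, Cidec had 0.165 per kb, and only the carbonic anhydrase gene Car3 was well above that, at 10.9 (5.79 to 26.8). Of the adrenal markers, Cyp11a1, Cyp11b1, Cyp11b2, Cyp21a1, Th and Dbh were not listed, and Star and Hsd3b1 had 0.413 and 0.151. Urothelial genes had a median of 0.131 per kb, and the 7 that were measured all had a level under 1. The injury markers Havcr1 and Lcn2, which rise in damaged tubules, had 1.26 (0.672 to 2.30) and 0.578 (0.117 to 0.938) per kb, while Spp1, osteopontin, had 476 (407 to 524).

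**Figure D2:**
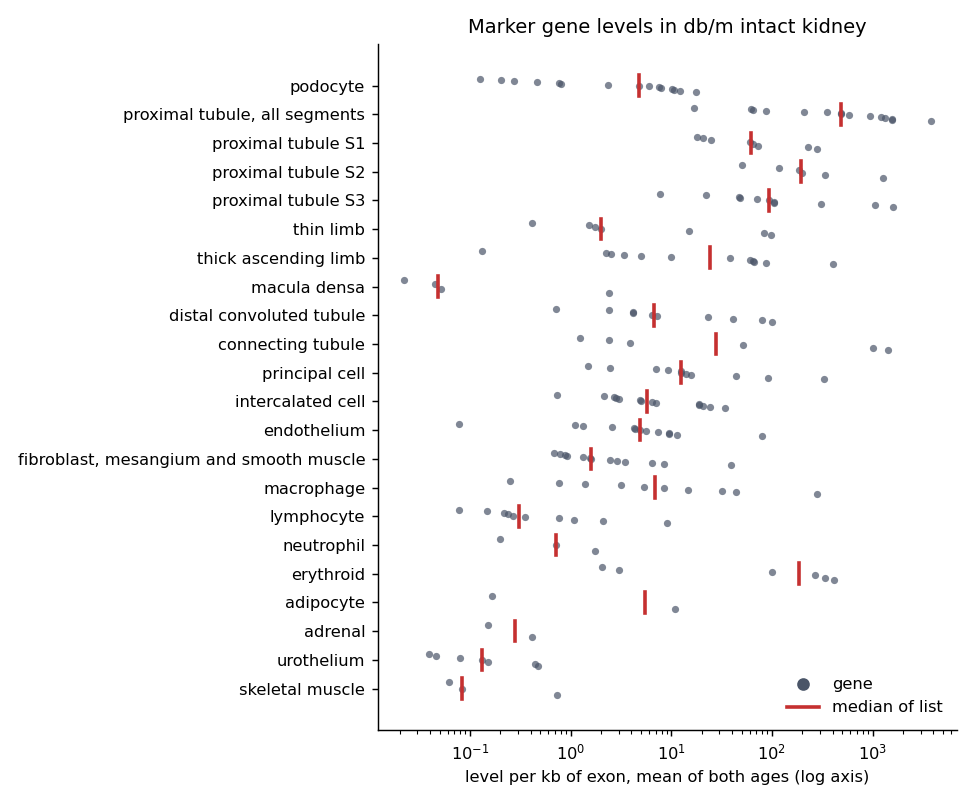
Level per kb of exon (log axis) of each marker gene in db/m kidney, by nephron segment or cell type, with 1 point per gene and a bar at the list's median. The proximal tubule list has the highest median (485 per kb), and markers of urothelium, adrenal gland and skeletal muscle lie below 1 per kb.

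Solute carriers were the largest family of membrane transporters. Of 300 Slc genes in the table, 272 had a level of at least 1, 78 of at least 100 and 5 of at least 1000, and together they held 4.55% ± 0.131 (SD, n = 11) of the signal. The organic ion branch Slc22 held 0.642% ± 0.0277 with 23 genes, and the mitochondrial carriers Slc25 held 0.757% ± 0.0165 with 42. The sodium pump that drives most of this transport had Atp1b1, its beta subunit, at 377 (332 to 407) per kb. Its small regulator Fxyd2 had 806 (640.0 to 945). Of the apical sodium entry genes, the proton exchanger Slc9a3 (NHE3) at 11.9 (10.6 to 12.8) and the epithelial channel subunit Scnn1b at 13.9 (12.0 to 15.3) were far lower per kb. Slc12a1 and Slc12a3, given above, lay between these and Atp1b1.

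For glucose, the low-affinity carrier Slc5a2 exceeded the high-affinity carrier Slc5a1, which had 22.2 (18.5 to 27.6) per kb, and the db/m ranges of the pair did not overlap. Slc5a10, a mannose and fructose carrier, had 102 (80.2 to 118), and the basolateral glucose exit gene Slc2a2 (GLUT2) 31.0 (21.7 to 35.9). For amino acids the highest gene was not a carrier but Cltrn, collectrin, the partner of apical amino acid carriers, at 1266 (1097 to 1418). The cystine carrier subunit Slc3a1 had 307 (279.6 to 345) and its partner Slc7a9 59.5 (40.4 to 72.1). Among organic ion carriers the highest were Slc22a18 at 512 (447 to 561), the urate exchanger Slc22a12 (URAT1) at 377 (246 to 453) and Slc17a1 at 349.6 (291 to 409.9). Slc22 and Slco genes have close paralogs, which leaves the division of reads among them uncertain.

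For phosphate, Slc34a1 stood at 1199.6 per kb, and the next genes of the phosphate, sulfate and carboxylate list were the dicarboxylate carrier Slc13a3 at 109 (84.5 to 128) and the sulfate carrier Slc13a1 at 60.1 (42.8 to 73.9). Carbonic anhydrases led the acid-base list, the membrane-bound Car4 at 149.5 (114 to 183) and the cytosolic Car2 at 145 (129 to 168), followed by the bicarbonate exit carrier Slc4a4 at 62.5 (54.6 to 70.5). The receptor for parathyroid hormone, Pth1r, had 249.95 (216 to 279) and klotho, Kl, the partner of the FGF23 receptor, 62.7 (55.3 to 68.2). Among water channels the proximal Aqp1 had 206 (175 to 255), while Aqp5 and Aqp9 were not listed in the table. The genes of protein uptake were led by the lysosomal protease Lgmn at 217 (189 to 251) and the folate receptor Folr1 at 211 (166 to 249), and megalin, Lrp2, had 64.8 (57.5 to 70.1).

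Energy metabolism held a large share. The 13 protein genes of the mitochondrial genome held 4.12% ± 0.301 (SD, n = 11) of the signal and 10.4% ± 0.600 of the value per kb, from mt-Cytb to mt-Nd4l at 458 (387 to 594) per kb. The 29 nuclear genes of the respiratory chain held 2.39% ± 0.0686 of the signal, and all 29 had a level of at least 100. The highest per kb were Cox6a1, of cytochrome c oxidase, at 1196 (963 to 1484) and Atp5b, the catalytic subunit of ATP synthase, at 1124 (1060.4 to 1189). In the citrate cycle and its cytosolic shuttle the malate dehydrogenase Mdh1 had 835 (769 to 879.8) and the isocitrate dehydrogenases Idh1 and Idh2 319.6 (302 to 337) and 249 (226 to 273). Fatty acid oxidation was led by Etfb, which passes electrons to the respiratory chain, at 640.0 (508 to 748), and by Acadm, the medium-chain dehydrogenase, at 283 (267 to 315). In peroxisomes the peroxidase Prdx5 had 923 (779 to 1054), the hydroxyacid oxidase Hao2 499.96 (288 to 634) and catalase, Cat, 366 (347 to 416).

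Genes of glucose production stood high and those of the committing steps of glycolysis low. Per kb, Fbp1 had 1319 and Pck1, phosphoenolpyruvate carboxykinase, 584 (363 to 991), with glucose-6-phosphatase, G6pc, at 198 (139 to 251). The mitochondrial isoform Pck2 had 1.63 (1.32 to 1.96). The hexokinase gene Hk1 had 7.29 (5.07 to 11.1), the phosphofructokinase gene Pfkl 10.9 (9.08 to 14.1) and Hk2, the hexokinase of muscle, 0.0740 per kb. The highest members of the glycolysis list were Ldhb, a lactate dehydrogenase subunit, at 1314 (1150.2 to 1407), and Tpi1, triosephosphate isomerase, at 581 (518 to 663), which work in both directions. Ketone use was represented by Oxct1 at 377 (354 to 403) and Acat1 at 309.6 (271 to 345). In fructose and polyol metabolism Akr1a1, aldehyde reductase, had 1317 (1101 to 1463), Sord, sorbitol dehydrogenase, 1004 (920.0 to 1105) and ketohexokinase, Khk, 421 (342 to 496).

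Among enzymes of amino acid use, Fah, of tyrosine breakdown, had 289 (259 to 311) per kb and Ass1, which makes argininosuccinate for arginine, 356 (316 to 395). Glutathione genes held 4.60% ± 0.224 of the signal, most of it Gpx3. Ggt1, which splits extracellular glutathione at the brush border, had 484 (423 to 560.4) and Gstm1, a glutathione transferase with close paralogs, 442 (345 to 519). The 51 cytochrome P450 genes held 1.76% ± 0.117. After Cyp4b1 and Cyp2e1 came Cyp2j5, an epoxygenase, at 618 (572 to 671), Cyp4a12a, the male 20-HETE synthase, at 392 (296 to 599) and Cyp2a4, a steroid hydroxylase, at 349 (304 to 408). Cyp2a and Cyp4a genes have near-identical copies, so their reads are uncertain. Lipid synthesis was low beside this, with fatty acid synthase, Fasn, at 3.76 (2.38 to 5.55) and the fatty acid uptake gene Cd36 at 126 (94.9 to 152).

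Fatty acids and benzoate are activated and joined to glycine in the proximal tubule, and this list had Acsm2 followed by Keg1, a kidney glycine acyltransferase relative, at 485 (427 to 613) per kb, Acsm1 at 304 (285 to 337) and Glyat at 175 (146 to 204). All 9 genes of the list had a level of at least 100. For ammonia production Glud1, glutamate dehydrogenase, had 59.2 (54.3 to 64.6) per kb, while Glul, which removes ammonia as glutamine, had 53.0 (37.1 to 71.5). Potassium channels were led by Kcnj15 at 113 (103 to 126), and the secretory channel Kcnj1 (ROMK) had 38.6 (31.0 to 51.7).

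Genes known to be higher in male kidney were present in all libraries of these males. The 16 listed genes held 3.52% ± 0.335 of the signal and 14 had a level of at least 100, with Odc1, ornithine decarboxylase, at 344 (243 to 648) per kb after Kap, Cyp4b1, Cyp2e1 and Cyp4a12a. Most of that share was Kap, at 1.71%, and Cyp4b1, at 0.874%. The 9 genes known to be higher in females held 0.105% ± 0.0110, with a median of 4.04 per kb against 109.7, and Cyp2a4 was their highest. The erythropoietin gene Epo was not listed in the table. Receptors for steroid and growth signals were modest per kb, with the growth hormone receptor Ghr at 92.8 (85.1 to 100.5) and the vitamin D receptor Vdr at 43.1 (37.7 to 56.5).

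Most genes varied little between mice of 1 age. Among 6412 genes with a mean value of at least 20 in both groups, the median SD of log2(value + 1) was 0.131 at 26 weeks and 0.128 at 35 weeks. Counting alone would give about 0.0645 at a value of 20 and 0.0288 at 100, where the estimated depth applies. The 100 most variable genes of each age, 1.56% of these genes, shared 41 members. The 100 steadiest shared 3. Across genes, which are not independent, the SDs at both ages had a Spearman rho of 0.403, given as a description. Of the 100 most variable at 26 weeks, 96 lay above the median SD at 35 weeks, and of the 100 steadiest at 26 weeks, 19 did. At the edge of the lists the SD was 0.390 for the last gene inside and 0.389 for the first outside at 26 weeks.

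**Figure D3:**
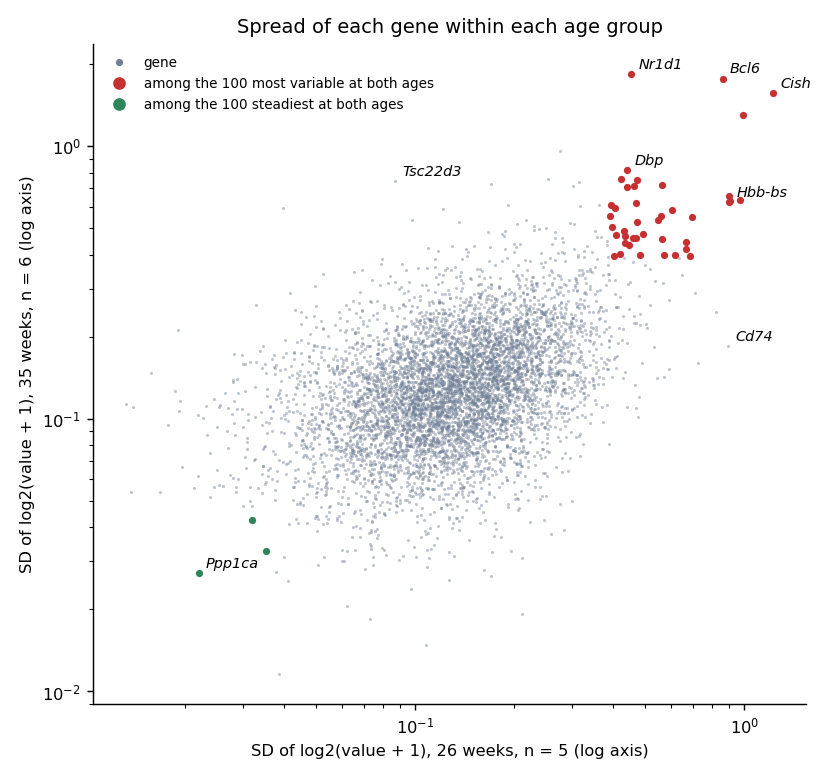
SD of log2(value + 1) of each gene within the 26-week group (x, log axis) and the 35-week group (y, log axis), with 1 point per gene. Red points are the 41 genes among the 100 most variable at both ages, among them Cish, Bcl6 and Nr1d1, and green points the 3 genes among the 100 steadiest at both, with Ppp1ca the lowest of them.

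The genes among the 100 steadiest at both ages were Ppp1ca, the catalytic subunit of protein phosphatase 1, Itm2b, a membrane protein of the secretory pathway, and Ppia, cyclophilin A. Ppp1ca had 396, 392, 396, 404 and 387 at 26 weeks and ran from 377 to 393 with a median of 379.8 at 35 weeks, an SD of 0.022 and 0.027 in log2. Itm2b had 1837, 1916, 1909.7, 1823 and 1829 and ran from 1844 to 1954 with a median of 1886. Its ages overlapped, while Ppia, at 1472, 1466, 1452, 1529 and 1514 and then from 1256 to 1348 with a median of 1296, did not overlap between the ages. The 10 steadiest at 26 weeks were Chmp3, Parl, Ap5s1, Jund, Hsd17b10, Dctn5, Aldh9a1, Kansl3, Sars and Park7, with SDs of 0.013 to 0.019. At 35 weeks they included Ndufb4, Lamp1, Pex5, Arpc2, Fkbp3, Nudc, Kl, Amz2 and Ppp1ca, with 0.015 to 0.027. Some of these were steady at 1 age only. Kansl3, a chromatin regulator, had an SD of 0.019 at 26 weeks and 0.21 at 35 weeks, and Pex5, the peroxisomal import receptor, 0.21 and 0.019.

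Genes used as references in kidney PCR differed in steadiness. The percentile of the within-age SD, from 0 for the steadiest of the 6412 genes, was 0.109 for Ppia, 2.85 for the elongation factor Eef2 and 3.24 for Gapdh. It was 19.7 for Actb and 27.8 for Hprt. Eef1a1, another elongation factor gene, and Sdha, of respiratory complex II, were among the steadier ones at 0.390 and 0.468, while Gusb, a lysosomal glucuronidase, and B2m, the light chain of MHC class I, reached 98.7 and 98.9 and were among the 100 most variable at 26 weeks. Steadiness within an age did not mean the same level at both ages. Gapdh had 289, 276, 277, 281 and 304 at 26 weeks and ran from 239.9 to 274 with a median of 249.9 at 35 weeks, without overlap. Limma called Gapdh and Ppia lower at 35 weeks, but under quantile normalization it called neither (limma adjusted p 0.187 and 0.145). In the db/m libraries alone Gapdh was not called (limma adjusted p 0.0521). Actb, at 744, 884, 744, 804 and 766 and then from 758 to 875 with a median of 859, overlapped.

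Cish led the variable genes of the db/m kidney. Cish (ENSMUSG00000032578, chromosome 9, 107296026 to 107302784) encodes an inhibitor of cytokine receptor signalling that STAT5 is known to induce, and Bcl6 (ENSMUSG00000022508, chromosome 16, 23965052 to 23988852) a transcriptional repressor that STAT5 signalling is known to lower in mouse liver. The RefSeq promoter windows of this pair (GRCm38.p6, from 250 bases before to 50 after a start site, coding strand) are shown because Cish was high in most libraries where Bcl6 was low, with the STAT motif TTCNNNGAA in capitals. That motif reads the same on both strands.
Cish, chr9:107296409-107296708 (+): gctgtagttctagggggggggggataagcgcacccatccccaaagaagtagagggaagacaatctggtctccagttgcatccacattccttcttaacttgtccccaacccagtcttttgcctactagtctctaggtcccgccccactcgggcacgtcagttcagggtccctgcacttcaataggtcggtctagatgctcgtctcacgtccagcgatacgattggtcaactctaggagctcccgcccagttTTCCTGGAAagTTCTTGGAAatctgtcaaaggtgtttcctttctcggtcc
Bcl6, chr16:23988803-23989102 (-): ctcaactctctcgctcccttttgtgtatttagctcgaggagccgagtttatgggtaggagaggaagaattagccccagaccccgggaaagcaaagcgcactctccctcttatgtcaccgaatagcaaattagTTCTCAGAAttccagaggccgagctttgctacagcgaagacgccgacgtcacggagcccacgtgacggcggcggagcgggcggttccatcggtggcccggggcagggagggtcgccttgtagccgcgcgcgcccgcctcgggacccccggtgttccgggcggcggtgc
Bcl6, chr16:23981234-23981533 (-): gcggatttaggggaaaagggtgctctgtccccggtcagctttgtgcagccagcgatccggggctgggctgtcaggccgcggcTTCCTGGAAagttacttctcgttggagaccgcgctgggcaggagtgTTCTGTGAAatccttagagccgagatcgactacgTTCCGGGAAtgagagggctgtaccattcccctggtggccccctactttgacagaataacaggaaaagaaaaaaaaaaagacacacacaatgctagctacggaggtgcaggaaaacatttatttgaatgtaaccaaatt
The windows hold 2, 1 and 3 matches. Of 32851 such windows, 8.30% hold at least 1 match, 0.457% at least 2 and 0.0335% at least 3. A match describes the letters only and is not evidence of binding.

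Cish had values of 6.32, 20.1, 14.3, 43.0 and 61.3 in 26-week libraries 01 to 05, and 41.6, 3.77, 70.1, 36.5, 14.3 and 5.79 in 35-week libraries 01 to 06. Bcl6 had 57.8, 30.1, 16.6, 27.1 and 11.2 and 3.44, 78.1, 8.05, 8.19, 55.8 and 54.5 in the same libraries. At 35 weeks the 3 libraries with the highest Cish, 01, 03 and 04, were the 3 with the lowest Bcl6, and the values of each gene left a gap between those libraries and the others. At 26 weeks library 01 had the lowest Cish with the highest Bcl6, and library 05 the highest Cish with the lowest Bcl6. Between the ages the log2 difference was smaller than its standard error for both, -0.23 ± 0.59 for Cish and -0.27 ± 0.61 for Bcl6 (limma). Irs2, the insulin receptor substrate, had 39.2, 66.7, 53.2, 74.3 and 146 and 69.4, 66.4, 109, 78.3, 34.7 and 52.2, and at both ages its highest value fell in the library with the highest Cish.

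Globin transcripts varied as a block. Hbb-bs, an adult beta globin, had 443, 479.9, 166, 226 and 798 at 26 weeks and 129.6, 113, 202, 218, 203 and 386 at 35 weeks. Hba-a1, an alpha globin, had 329.8, 327, 124, 147 and 570.1 and 90.9, 68.4, 136, 147, 129 and 247. Library 05 was the highest at 26 weeks and library 06 at 35 weeks for both, and Hba-a2 and Hbb-bt kept the same highest libraries. All 4 globins of the erythroid list with a mean of at least 20 were among the 100 most variable at each age. How much blood each kidney held is not given in the labels, and its part was not tested. Hba-a1 and Hba-a2 are near-identical, so the division of reads between them is uncertain.

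The clock gene Nr1d1 set 1 library apart. Nr1d1 (ENSMUSG00000020889, chromosome 11, 98767932 to 98775333), which encodes the clock repressor REV-ERB alpha, had 70.1, 70.1, 84.8, 36.9 and 71.7 at 26 weeks and 95.7, 89.4, 93.4, 83.2, 3.02 and 90.2 at 35 weeks, where library 05 was at 3.02 and the others at 83.2 or more. Dbp, a clock output factor, was lowest there, at 14.97, and Arntl (BMAL1) highest, at 16.1. Tsc22d3 (GILZ), known to respond to glucocorticoids, was highest in the same library. It had 111 against 26.9 to 52.2 in the others, and Fkbp5, singled out after its values were seen, had 194 against 62.0 to 120.1. Of 9 clock genes with a mean of at least 20, 2 were among the 100 most variable at 26 weeks and 6 at 35 weeks. The hour at which each mouse was killed is not given, and its part was not tested.

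At 26 weeks, library 04 stood apart in Cd74, H2-Ab1 and Pigr. Cd74 had 342, 400.2, 410.0, 1479 and 348, and the MHC class II chain gene H2-Ab1 245, 282, 275, 907 and 227. Pigr, the receptor that carries IgA across epithelium, had 135, 183, 113, 412 and 152, again with library 04 highest. The macrophage marker list, which holds Cd74, summed to 0.168% of the signal in its highest 26-week library and 0.0485% in its lowest, and Cd74 alone held 0.146% in library 04, where the sum was highest. Of its 4 genes with a mean of at least 20, 1 was among the 100 most variable at 26 weeks. At 35 weeks Cd74 ran from 273 to 383 with a median of 338. Akr1b3, Cryab and Slc5a3 were each highest in 35-week library 04. Akr1b3, aldose reductase, had 322 in it and 75.2 to 143 in the others. The chaperone gene Cryab had 331 against 83.5 to 130.1, and the inositol carrier Slc5a3 79.0 against 25.8 to 57.5. Akr1b3 and Slc5a3 were singled out after their values were seen.

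**Figure D4:**
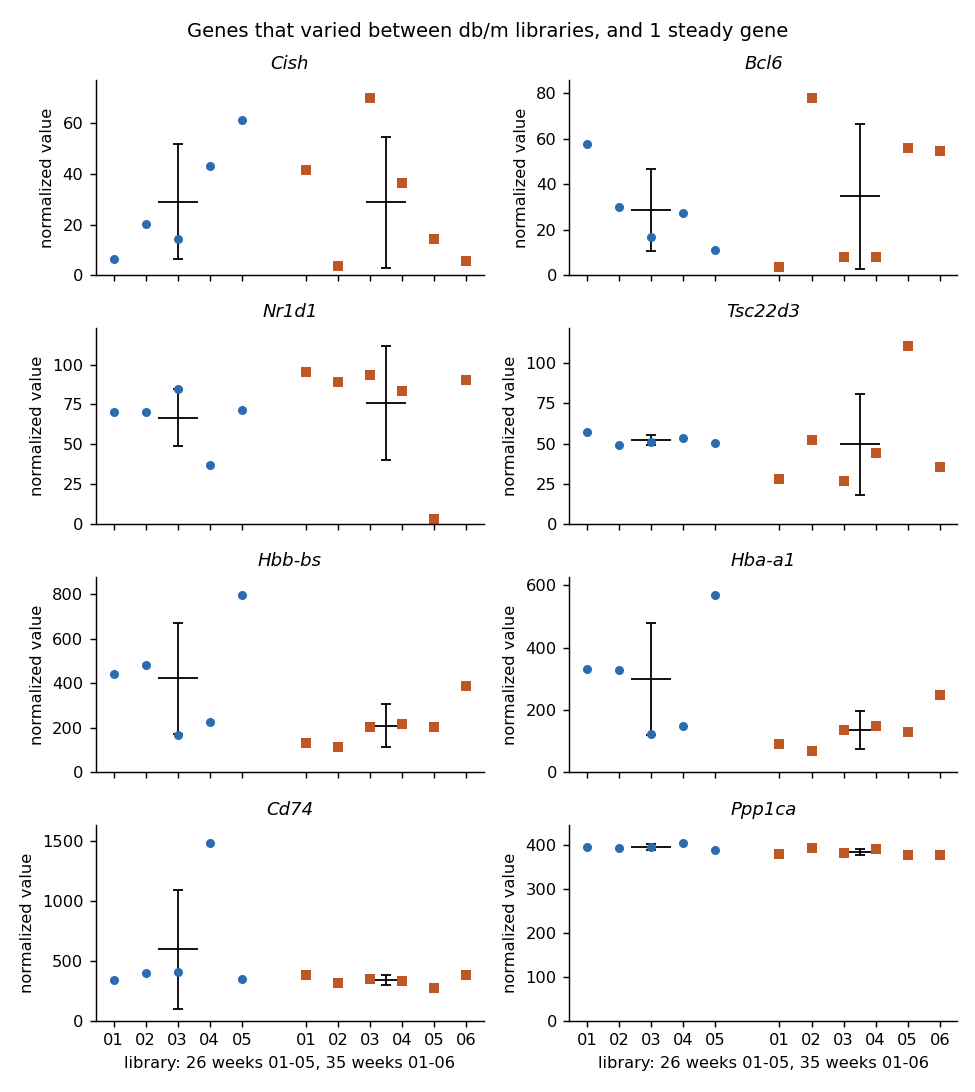
Normalized value in each db/m library (circles 26 weeks 01 to 05, squares 35 weeks 01 to 06) with the group mean and SD. Cish is high in most libraries where Bcl6 is low, 35-week library 05 is at 3.02 for Nr1d1 and 111 for Tsc22d3, the globins share their highest libraries, 26-week library 04 reaches 1479 for Cd74, and Ppp1ca is even.

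The signal was spread over slightly more genes at 35 weeks. The 10 most abundant genes held 11.2% ± 0.333 at 26 weeks and 10.6% ± 0.325 at 35 weeks (exact permutation test, two-sided, p = 0.0152, Benjamini-Hochberg adjusted over 5 measures 0.0253). The 100 most abundant held 30.2% ± 0.278 at 26 weeks and 29.0% ± 0.523 at 35 weeks (exact permutation p = 0.00216, adjusted 0.00541), without overlap. To reach 50% of the signal took 457 ± 13.3 genes at 26 weeks and 500.5 ± 22.04 at 35 weeks, also without overlap, at the same exact permutation p, 0.00216, the smallest that the 462 splits of 5 and 6 libraries can give. The share of the first gene, Gpx3, was 2.88% ± 0.209 at 26 weeks and 2.84% ± 0.180 at 35 weeks and its groups overlapped (exact permutation p = 0.768). The share of the mitochondrially encoded genes was 4.29% ± 0.346 at 26 weeks and 3.97% ± 0.173 at 35 weeks (exact permutation p = 0.0758, adjusted 0.0947). With 26-week library 05 or 35-week library 03, 04, 05 or 06 left out, the adjusted exact permutation p for the 10 most abundant genes was 0.0529 to 0.0556. Without 26-week library 04 that for the mitochondrially encoded genes was 0.0159. Per kb, where the first gene is Kap, its share fell by 1.20 percentage points from 26 to 35 weeks (exact permutation, adjusted p = 0.00361). The log2 gap between short and long genes described below was highest in 26-week library 05 (0.30) and lowest in 35-week library 05 (-0.34). Those libraries also had the highest and the lowest share in the 10 most abundant genes, 11.7% and 10.1%. The fewest genes to reach 50%, 441, were in 26-week library 05 and the most, 541, in 35-week library 04. The part of gene length in these shares was not tested.

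Between 26 and 35 weeks, limma called 999 of 13495 genes in db/m kidney at a Benjamini-Hochberg adjusted p below 0.05, or 7.4%, with 368 higher at 35 weeks (2.73%) and 631 lower (4.68%). Of the 20 most abundant genes by level, 0 were called higher and 3 lower, and at an unadjusted p under 0.05 limma had 0 higher and 7 lower. Gpx1 had 6474, 6910.0, 6679.6, 6623 and 6955 at 26 weeks and ran from 5059.7 to 6419 with a median of 5612 at 35 weeks, without overlap, a log2 difference of -0.25 ± 0.051 (SE; limma, Benjamini-Hochberg adjusted p 0.00160). Fth1 differed by -0.17 ± 0.042 and mt-Co3 by -0.23 ± 0.067. Under quantile normalization none of the 3 was called, with limma adjusted p of 0.0934, 0.156 and 0.0518, and without 26-week library 02, 03 or 05 or 35-week library 03, 04 or 05 the mt-Co3 call was lost (limma adjusted p 0.0626 to 0.0955). Kap, whose groups did not overlap, was not called in this fit, with a log2 difference of -0.42 ± 0.31 (SE; limma, Benjamini-Hochberg adjusted p 0.482). That fit shares 1 spread per gene with the db/db Unx libraries, where Kap ran from 939 to 3233 at 26 weeks and from 339 to 1214 at 35 weeks. In a fit of the db/m libraries alone, Kap was called (limma adjusted p 0.00379), at the same difference. That fit of the db/m libraries did not call Fth1 (limma adjusted p 0.0548). Without 26-week library 05 the fit called 578 genes.

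The genes with the smallest adjusted p that were higher at 35 weeks were Ndrg1, a stress-responsive gene of epithelia, Ipmk, an inositol phosphate kinase, Cluh, which binds mRNAs of mitochondrial proteins, Ptprk, a receptor phosphatase, Hs6st1, a heparan sulfate sulfotransferase, and Khnyn, an antiviral cofactor. Ndrg1 had 1397, 1222, 1462, 1493 and 1267 at 26 weeks and ran from 2020.1 to 2984 with a median of 2537 at 35 weeks, without overlap, a log2 difference of 0.88 ± 0.12 (SE; limma, Benjamini-Hochberg adjusted p 0.000131). Log2 differences were 0.73 for Ipmk, 0.48 for Cluh, 0.44 for Ptprk, 0.47 for Hs6st1 and 0.55 for Khnyn. Those lower at 35 weeks were Myl6, a myosin light chain, the respiratory chain genes Ndufa4, Ndufa13 and Ndufa3, the ATP synthase gene Atp5k, and Rpl24, of the large ribosomal subunit. Myl6 had 438, 453, 455, 513 and 505 and ran from 340.3 to 396 with a median of 356, without overlap, a log2 difference of -0.37 ± 0.050 (SE; limma, Benjamini-Hochberg adjusted p 0.000100). The others differed by -0.38 for Ndufa4, -0.41 for Ndufa13, -0.41 for Ndufa3, -0.47 for Atp5k and -0.40 for Rpl24.

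By group, 18 of the 29 nuclear respiratory chain genes and 27 of the 31 ribosomal protein genes were called lower at 35 weeks by limma and 0 of each list higher (at an unadjusted p under 0.05, 19 and 30 lower and 1 and 0 higher), with median log2 differences of -0.20 and -0.30 against 0.015 over all genes tested. Without 26-week library 05 the counts were 12 and 20. Of the 13 mitochondrially encoded genes, 4 were called lower, and 2 without 26-week library 02, 26-week library 05 or 35-week library 05. Of the 15 genes of the whole proximal tubule list, 0 were called higher and 0 lower by limma, and at an unadjusted p under 0.05 2 were higher and 3 lower, with a median of -0.015. The thick ascending limb list had 4 of 12 higher, Egf, Slc12a1, Ptger3 and Enox1. Slc12a1 had 227, 292, 321, 262 and 217 and then 286, 305, 415, 586, 669 and 367, highest in the libraries 04 and 05 that were also high in medullary genes, and without either 26-week library 04, 26-week library 05 or 35-week library 05 the list's count was 0, and without 35-week library 04 it was 1. Of 18 clock genes, Arntl and Npas2 were called higher and Per3, Dbp and Ciart lower. Dbp had 146, 146, 133, 82.2 and 191 at 26 weeks and ran from 14.97 to 75.6 with a median of 54.3 at 35 weeks, without overlap, a log2 difference of -1.54 ± 0.28 (SE; limma, Benjamini-Hochberg adjusted p 0.00114). The hour of collection was not given for either age and its part was not tested. In the fit of the db/m libraries alone the limma adjusted p of Dbp was 0.0571.

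In the other lists a few genes kept their age call in every alternative fit. Cdkn1a, the cell cycle inhibitor p21, had 4.35, 3.64, 2.98, 6.37 and 3.26 at 26 weeks and 9.78, 9.41, 9.41, 10.9, 8.63 and 7.97 at 35 weeks, a log2 difference of 1.05 ± 0.17 (SE; limma, Benjamini-Hochberg adjusted p 0.000263). Acsl1, a long-chain acyl-CoA synthetase, differed by 0.57 ± 0.13. Of the stromal list Acta2 was higher by 0.72 ± 0.16 and the collagen gene Col1a2 lower, at -0.58 ± 0.12. Among 15 podocyte genes 4 were called higher and 0 lower by limma, against 2.73% and 4.68% of all genes tested. At an unadjusted p under 0.05, 7 were higher and 1 lower. Npnt, of the glomerular basement membrane, at 0.50 ± 0.089, was the one with the smallest adjusted p. The median exon length of this list was 6620 bases. Of 4434 tested genes from 5000 to 10000 bases, 178 were called higher and 54 lower, and the part of length in the podocyte calls was not tested. Ren1 had 49.6, 47.5, 37.7, 50.4 and 47.8 at 26 weeks and 57.8, 87.6, 141, 60.5, 84.1 and 61.2 at 35 weeks, a log2 difference of 0.74 ± 0.21 (SE; limma, Benjamini-Hochberg adjusted p 0.0295). Its call was lost without 26-week library 02, 03 or 05 or 35-week library 02, 03 or 05 (limma adjusted p 0.0520 to 0.0745). It was also lost in the fit of the db/m libraries alone (limma adjusted p 0.0785).

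The calls differed by gene length. The median exon length was 2067 bases for genes lower at 35 weeks, 6022.5 for genes higher and 4390.5 for all genes tested. Of 324 genes of up to 1000 bases, 0 were called higher and 89 lower by limma (0 and 154 at an unadjusted p under 0.05), and of 1289 genes over 10000 bases, 67 were higher and 12 lower. By the same measure the median was 2181 bases for the nuclear respiratory chain list and 2007 for the ribosomal protein list. Of all genes tested, 14.5% of those from 1000 to 2000 bases and 5.87% of those from 2000 to 3000 bases were called lower. The difference between short and long genes also moved from library to library within an age. The median deviation of genes of up to 1000 bases minus that of genes over 5000 bases was 0.022, 0.17, 0.16, 0.21 and 0.30 log2 in 26-week libraries 01 to 05, and -0.00074, -0.10, -0.17, -0.20, -0.34 and -0.10 in 35-week libraries 01 to 06. The ages did not overlap on this measure, and the libraries at the ends, 26-week 05 and 35-week 05, are among those whose removal changed counts above. Without 26-week library 04 or 05 or 35-week library 04 or 05 the count of higher genes over 10000 bases was 38 to 40. Fragment size and RNA quality are not in the labels, and their part in the age calls was not tested.

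**Figure D5:**
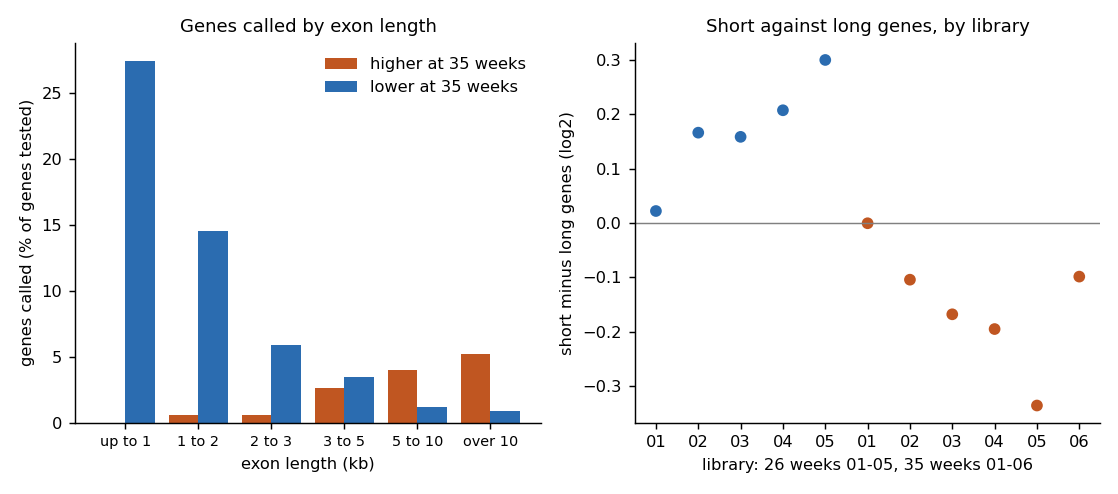
Left, share of tested genes (percent) called higher (orange) or lower (blue) at 35 than at 26 weeks, by exon length in kb. Right, median log2 deviation of short genes minus that of long genes in each library (blue 26 weeks 01 to 05, orange 35 weeks 01 to 06), which runs from 0.30 in 26-week library 05 to -0.34 in 35-week library 05.

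The gene mutated in the strain, Lepr, was barely detected in db/m kidney. Its values were 0.703, 0.650, 0.520, 0.293 and 0.247 at 26 weeks and ran from 0.799 to 4.70 with a median of 1.90 at 35 weeks, without overlap, a log2 difference of 1.02 ± 0.24 (SE; limma, Benjamini-Hochberg adjusted p 0.00654). A value summed over its transcripts does not show the db allele, so it checks no label.

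The most abundant db/m genes were also set beside the db/db Unx kidneys. At 26 weeks 4 of the 20 most abundant db/m genes were called higher in db/db Unx by limma (17.2% of all genes tested were) and 8 lower (17.7%). At 35 weeks 4 were higher (15.9%) and 11 lower (16.4%). The 20 genes were picked for a high level in the same db/m libraries, which favours calls lower in db/db Unx. The shares over all genes do not correct for this, so the counts are a description and no conclusion is drawn from them. Both comparisons span genotype and surgery, which cannot be told apart. Cndp2, a dipeptidase, was among the genes most different, at 3556 ± 779.9 in db/m and 488 ± 80.8 (n = 12) in db/db Unx at 26 weeks. It was also variable within db/m, with values of 4034, 2785, 3128, 4679.9 and 3152, all above the highest db/db Unx library at 624.8. For Slc34a1 the log2 difference was -0.26 ± 0.047 at 26 weeks and -0.55 ± 0.053 at 35 weeks, and this difference itself changed with age by -0.29 ± 0.071 log2 (limma adjusted p 0.0424), where 0.548% of genes were called. Under quantile normalization the sign of the difference was the opposite for mt-Co3, Atp5b and Akr1a1 at both ages, for Slc34a1 and mt-Nd4 at 26 weeks, and for mt-Nd1 and Malat1 at 35 weeks.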

How the data were processed

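The deposited values came from bulk kidney RNA-seq of 28 libraries, and the submitters' processing notes name DRAGEN and GRCm38 (mm10). The deposited table holds 1 normalized signal per gene and library, not divided by length. From the values it was inferred that these are estimated counts scaled by 1 factor per library. In the db/m libraries 89.2% to 91.3% of the low values were whole multiples of 1 smallest step, to a tolerance of 0.1 step. How that factor was set is not given in the sources used here. Whole reads could not be recovered for nearly all genes, so no count model was used. Exon lengths came from GENCODE M21, which matched 14842 of 14845 gene identifiers.

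Members and gene lists were chosen with earlier results of these data known. Groups were the labels' genotype, surgery and age. Differences were fitted with limma 3.58.1 (R 4.3.3) on log2(value + 1) over the 4 groups, for the 13495 genes that reached a value of 1 in 5 or more libraries, with a trended, robust prior. Adjusted p-values are Benjamini-Hochberg, and a gene was called below 0.05. Fold changes of low genes are understated on this scale. Shares were compared by exact permutation with scipy 1.17.1. The fits were checked on simulated data.

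Genes were named by rule: the 20 highest by level and per kb; in each list the 6 highest per kb, those not listed or under 1, and up to 3 called by age; the 10 steadiest and 10 most variable per age and 15 shared; 6 called by age per direction with a mean of at least 20; and Lepr. Akr1b3, Eef2, Enox1, Fkbp5, Ghr, Gstm1, Gusb, Havcr1, Hprt, Lcn2, Npas2, Pck2, Per3, Sdha, Slc5a3, Slc7a9, Slc9a3, Vdr and mt-Nd4l fall outside it and were chosen after their values were seen. Some genes that the rule names are not reported here. Alternatives were other pseudocounts, filters, scalings, lengths, the db/m libraries alone, a replicate block and each library left out.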

Additional observations from a re-analysis of the deposited data

Results flagged for a closer look

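In 8 of 114 sets of libraries, 1 library lay farther from the others than Dixon's 95% limit allows. Each set was a gene or a measure of the whole library in 1 age group. Some of these genes were chosen for their large spread within an age, which 1 far library can produce. The rate of about 1 in 20 expected by chance is therefore no baseline for this count. Over all 6412 genes with a mean of at least 20 the share was 5.58% at 26 weeks and 7.19% at 35 weeks. Library 05 at 35 weeks lay beyond the limit for 4 genes. Its Nr1d1 was 3.02, the lowest. Tsc22d3, the glucocorticoid-induced GILZ gene, was 111 there. Gldc, of the glycine cleavage system, was 188, against 44.96 to 93.4 in the other 35-week libraries. Nat8f5, an N-acetyltransferase-like gene, was 125, against 30.3 to 40.7. Library 04 at 26 weeks stood apart for Cd74 at 1479, H2-Ab1 at 907 and Pigr at 412. Library 03 at 35 weeks was highest for Ipmk at 120.3, against 93.4 to 101. Of the 20 most abundant genes, the db/db Unx difference changed with age for Slc34a1, by -0.29 log2 (limma adjusted p 0.0424).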

How the results depend on the processing

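Of the named genes called between 26 and 35 weeks, 953 gene and setting pairs kept the call and 186 lost it, and no direction reversed. Most pairs, 623 kept and 114 lost, were fits with 1 library left out, which share nearly all their data. Of the 67 genes, 42 lost the call in at least 1 setting. The replicate block lost 37 calls and quantile normalization 17. Genes called by age numbered 578 to 1140 with 1 library left out, lowest without 26-week library 05 and highest without 35-week library 01. Over the db/m libraries alone 789 were called, and 142 when the replicate block was added to that fit. Libraries of the same number did not deviate together (correlations -0.10 to -0.00039, and no library correlated best with its own number), so the number is not treated as a pairing. Under the replicate block, which leaves out 35-week library 06, the change from 26 to 35 weeks was -0.63 percentage points for the 10 most abundant genes, -1.16 for the 100 most abundant and 43.6 genes for the number that reaches 50%, each with an exact permutation adjusted p of 0.104. With 5 pairs the smallest two-sided p before adjustment is 0.0625, so no measure could be called. With 1 library left out the top 10 change ran from -0.71 to -0.51 and that of the mitochondrially encoded share from -0.46 to -0.25. The first gene's share per kb changed by -1.20.

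The 10 most abundant genes held 20.4% per kb of exon and 17.5% per kb of the longest transcript, and the 100 most abundant 42.5%, 39.8% and, without mitochondrial genes, 27.6%. At a mean of at least 5, the lists of most variable genes shared 24 genes, and with 1 library left out the steadiest lists shared 2 to 7. List shares of the value per kb moved by less than their SD in 604 of the list and setting pairs and by more in 20. Of the 604, 528 had 1 library left out, which cannot move a mean over 11 libraries by its SD, so they test nothing. Under another scaling of the libraries all 48 lists stayed. That scaling divides each library by 1 factor, which cannot change a share within it, so these pairs test nothing either. Per kb of the longest transcript, 20 lists moved and 28 stayed, so these shares depend on the length used.

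Against db/db Unx, quantile normalization gave log2 differences of the opposite sign: 0.20 for Slc34a1, 0.36 for mt-Co3, 0.28 for Atp5b, 0.16 for Akr1a1 and 0.17 for mt-Nd4 at 26 weeks, and 0.37 for mt-Co3, 0.29 for Atp5b, 0.26 for mt-Nd1, 0.13 for Malat1 and 0.028 for Akr1a1 at 35 weeks. The cause was not tested. The alternatives that leave out 1 library for list members and gene lengths were added after seeing the data. Depth limits genes with values near 1, and the files do not give the true counts.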

Other observations

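Over all genes in the table, 12.0% had a level of at least 100, and the median was 4.43 per kb over those with a level of at least 1. Of 17 immediate early genes in the table, 1 had a level of at least 100, Jund, and Fos had a level of 0.934 and Egr1 of 3.61. In the age comparison limma called 0 of the 16 tested higher and 0 lower, and at an unadjusted p under 0.05 2 were higher and 0 lower. Of 10 heat shock genes 3 had a level of at least 100, and the median of the list was 12.2 per kb, with Hspa8, the constitutive chaperone, at 450.2 (293 to 562) per kb and the inducible Hspa1b at 8.23 (3.22 to 32.8). None of the 21 interferon response genes had a level of 100, and their median was 1.58 per kb. Of 15 tubule injury genes 3 had a level of at least 100, Spp1, Clu and Krt8, and the SD of log2(value + 1) within an age was 0.066 for Krt8 and 0.13 for Spp1.

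Among gene families, 99 genes named Rpl or Rps held 1.09% ± 0.105 (SD, n = 11) of the signal. The glucuronosyltransferases, Ugt, held 0.685% ± 0.0323 with 16 genes, led per kb by Ugt2b38 and Ugt3a2. The proton pump family Atp6 held 0.424% ± 0.0121, and the claudins, Cldn, which seal the tubule, 0.104% ± 0.00588, led by Cldn2 and Cldn10. Ugt genes share exons and have close paralogs, so the values of single members are uncertain.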
